A study of Mus musculus with 48 samples.

Results

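The genes described here are 10 genes of insulin signaling and its nutrient-sensing branches in mouse tibia. They are the insulin receptor Insr, its docking proteins Irs1 and Irs2, the FOXO transcription factors Foxo1, Foxo3 and Foxo4, the sestrins Sesn1, Sesn2 and Sesn3, and the translation repressor Eif4ebp1. They were chosen by name, with earlier results of these data known, from 29801 genes in the expression table. All 10 were in the table, and 9 were among the 13590 genes tested, those averaging 1 FPKM or more across all mice. FPKM is a transcript level in fragments per kilobase and per unit of mapped reads, here after quantile normalization. Irs1 was just below that minimum, at a mean of 0.9995 FPKM, and its statistics come from a fit without the filter.

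RNA from whole tibiae of 12 male C57BL/6J mice was compared in 4 groups of 3 mice each, to follow caloric restriction (CR) and age in bone. The series' design text gives 15 to 18 months for aged CR and aged AL mice and 10 weeks for young CR and young AL mice. By the study's methods these are ages when CR began, with a range around the age of the young mice, so the mice were older by the length of the intervention when the tibiae were taken. During 8 weeks of CR, food was cut by 10% at first, by 20% a week later and by 40% for the remaining weeks. AL mice ate freely. By the study's methods CR mice were given their ration shortly before lights went off. How long each mouse had been without food when the tibiae were taken is not stated, and cannot be told apart from diet. The AL diet was NIH-31 and the CR diet a modified NIH-31 chow fortified with micronutrients, so intake and formula differed together and cannot be told apart. The labels name no transgene or mutation. The study also performed a tibia osteotomy during the intervention, and the sources used here do not state whether the sequenced tibiae came from operated mice. Each mouse had 4 technical repeats in the labels and 1 column of values, and counted once.

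Insulin binding to its receptor leads to tyrosine phosphorylation of the IRS proteins, which recruit PI3 kinase and activate AKT. AKT phosphorylates the FOXO factors and keeps them out of the nucleus, so that in fasting FOXO proteins enter it and induce genes such as Insr and Irs2. Sestrins are stress-induced proteins that restrain mTORC1, the growth kinase complex that phosphorylates Eif4ebp1. Much of this control acts on proteins and is not read by RNA levels. In bone, insulin receptor signaling and FOXO factors act in osteoblasts, and Foxo1 and Foxo3 are also known for roles in B cell and red cell development.

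The genes lie on 7 chromosomes of GRCm38 by the GENCODE M21 annotation, and all 10 are protein coding. Insr (chr8:3122061-3279617), Irs2 (chr8:10984681-11008458) and Irs1 (chr1:82233101-82291416) are on the minus strand, as are Foxo3 (chr10:42181841-42276755) and Sesn2 (chr4:132492032-132510501). Foxo1 (chr3:52268336-52353221), Foxo4 (chrX:101254528-101260873), Sesn1 (chr10:41809935-41908424), Sesn3 (chr9:14275067-14333101) and Eif4ebp1 (chr8:27260329-27276674) are on the plus strand.

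The 250 bases upstream of the start sites were searched for 3 motifs on both strands: the FOXO motif GTAAACA, the ATF4 motif TGATGNAA and the E-box CACGTG, a site of factors such as TFE3 and USF. None of these motifs overlapped another. Upstream sequences from RefSeq (GRCm38.p6) were matched for 7 of the 10 genes, with 8 windows because Sesn1 has a pair of start sites. Insr, Foxo4 and Eif4ebp1 had no entry. None of the 8 windows held the FOXO or the ATF4 motif, which were present in 3.17% and 3.45% of 32851 promoter windows of the same length. The E-box was present in 2 of the 8 windows, those of Irs1 and Irs2, and in 6.02% of all windows. Both are printed from the distal end to the last base before the start site, on the gene's own strand, with the E-box in capitals, because these related genes shared the motif while their age differences, neither of which passed the test, had opposite signs. The Irs1 window is chr1:82291440-82291689 and the Irs2 window chr8:11008930-11009179, both on the minus strand.
Irs1: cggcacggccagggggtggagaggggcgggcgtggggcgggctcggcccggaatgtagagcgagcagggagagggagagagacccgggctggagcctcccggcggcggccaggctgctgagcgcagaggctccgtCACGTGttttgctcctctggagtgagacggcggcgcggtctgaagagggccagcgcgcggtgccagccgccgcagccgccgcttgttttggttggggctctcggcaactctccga
Irs2: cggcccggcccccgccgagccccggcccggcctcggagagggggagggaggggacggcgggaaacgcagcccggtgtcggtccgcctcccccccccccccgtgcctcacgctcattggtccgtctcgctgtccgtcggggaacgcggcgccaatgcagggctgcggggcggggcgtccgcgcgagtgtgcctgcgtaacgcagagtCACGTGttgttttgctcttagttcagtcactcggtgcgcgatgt
The E-box began 115 bases before the RefSeq start site in Irs1 and 44 bases before it in Irs2. Both start sites lie upstream of the GENCODE genes, which begin at chr1:82291416 and chr8:11008458 on the minus strand. The distances therefore depend on the annotation, most of all for Irs2. A match is a description of the letters and was not tested as a binding site.

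The tibiae carried the markers of bone and marrow. All 8 osteoblast and osteocyte markers were tested, with summed levels of 285 to 1313 FPKM over the mice, and no marker of the 10 cell type lists was at 0 in every mouse. The values mix all cells of the bone, and fewer cells of a type and less RNA per cell cannot be told apart. With CR, 9 of 9 adipocyte markers were higher in aged and in young mice, with summed levels of 574 to 966 FPKM in aged CR, 277 to 554 in aged AL, 567 to 784 in young CR and 296 to 339 in young AL mice. B cell markers were higher with CR for 2 of 9 genes in aged and 0 of 9 in young mice. Their summed levels were 137 to 161 FPKM in aged CR, 83.0 to 311 in aged AL, 162 to 216 in young CR and 286 to 350 in young AL mice. Adherent muscle was removed before RNA extraction, by the protocol. With age, 10 of 10 skeletal muscle markers were higher, with summed levels of 169 to 985 FPKM in aged CR, 376 to 1158 in aged AL, 163 to 508 in young CR and 209 to 406 in young AL mice. Aged AL mouse 14 and aged CR mouse 5 stood apart, with root mean square differences from their groups of 0.44 and 0.38 on the log2 scale, against 0.24 to 0.36 for the other mice. Aged AL mouse 14 had the lowest B cell and osteoblast marker levels and the highest muscle marker level of all mice. The part of these cell types in the results below was not tested.

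None of the 9 tested genes passed an adjusted p under 0.05 for diet or age. The estimates were small. As folds of FPKM + 1, the 95% confidence limits lay between 0.796 and 1.23 for CR over AL averaged over both ages. For age, averaged over both diets, they lay between 0.819 and 1.49. Within an age the limits for CR were wider, 0.706 to 1.30 in aged mice and 0.701 to 1.41 in young mice. For the interaction they were 0.639 to 1.53. With limma and Benjamini-Hochberg adjustment over all tested genes, 0 of 9 passed for CR in aged mice, where 0% of all genes passed, and 0 of 9 in young mice, where 0.0662% passed. For CR over both ages 0 of 9 passed, against 0.258% of all genes, for age 0 of 9 against 0.758%, and for the interaction of diet and age 0 of 9 against 0%. At an unadjusted limma p under 0.05, 0 of 9 genes were counted for CR in aged mice (7.72% of all genes), 1 in young mice (Eif4ebp1; 11% of all genes), 0 over both ages (13.9%), 1 for age (Irs2; 16.6%) and 1 for the interaction (Sesn2; 4.23%). An unequal-variance test on FPKM with the same adjustment called 0 of 9 within aged mice and within young mice. It called 0 of all 13590 tested genes at each age, so its result on the 9 genes adds no information. The absence of calls does not show that levels were equal.

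**Figure D1:**
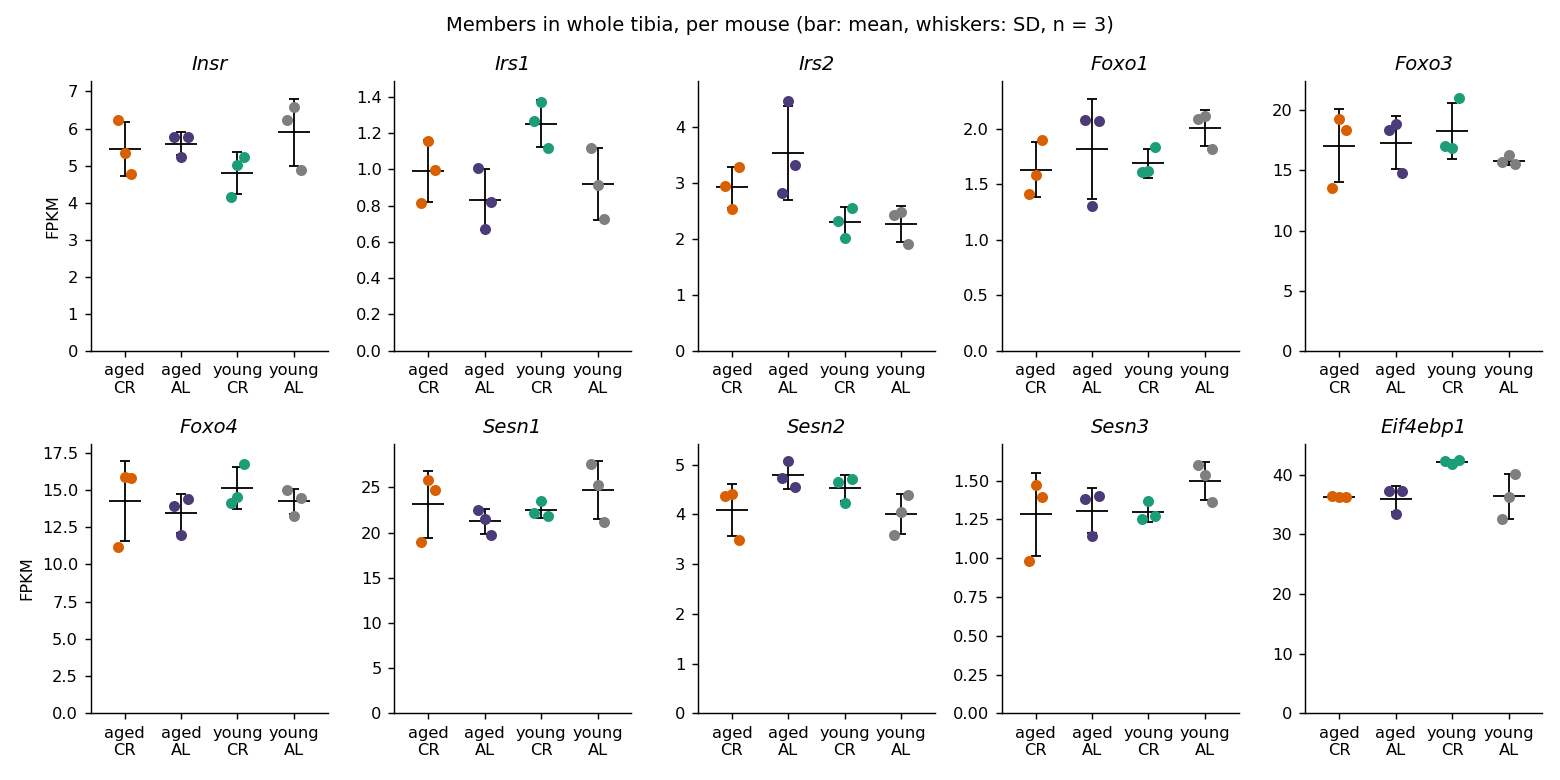
FPKM of the 10 genes in whole tibia for each mouse (points), with group mean (bar) and SD (whiskers, n = 3), on linear axes that start at 0. Eif4ebp1 in young CR mice, at 41.8 to 42.5 FPKM, lay above the other 9 mice, and Irs2 was highest in aged AL mouse 14, at 4.46 FPKM.

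Levels differed widely between the genes and little between the mice. Per length of transcript, Eif4ebp1 was the most abundant at a mean of 37.7 FPKM over 12 mice, followed by Sesn1 at 22.9, Foxo3 at 17.1 and Foxo4 at 14.3 FPKM. Lower down came Insr at 5.43, Sesn2 at 4.35, Irs2 at 2.75, Foxo1 at 1.79, Sesn3 at 1.35 and Irs1 at 0.9995 FPKM. The ranges over the mice of neighbours in this order overlapped, except that every mouse had more Eif4ebp1 than any had Sesn1, and more Foxo4 than any had Insr. The coefficient of variation over the 12 mice was 8.73% for Eif4ebp1, the lowest, and 25.2% for Irs2, the highest. The median of the 9 tested genes was 12.4%, against 13.2% for all tested genes.

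Insr, the receptor itself, was measured at 6.23, 5.35 and 4.77 FPKM in aged CR mice and at 5.77, 5.23 and 5.77 FPKM in aged AL mice. In young mice it was 4.15, 5.01 and 5.23 FPKM with CR and 6.23, 6.59 and 4.87 FPKM with AL. The highest value was in a young AL mouse and the lowest in a young CR mouse, and the groups overlapped at both ages. The log2 fold change for CR was -0.04 in aged mice and -0.25 ± 0.12 (SE) in young mice (limma, adjusted p = 0.972 and 0.487), and -0.14 over both ages with a 95% confidence interval of -0.33 to 0.05. An exact permutation of diet within age gave p = 0.15 (2-sided, smallest possible 0.005).

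Irs1, the docking protein that couples the insulin and IGF1 receptors to PI3 kinase, was the least abundant gene. Its levels were 0.818, 1.16 and 0.999 FPKM in aged CR mice, 1.01, 0.673 and 0.821 in aged AL mice, 1.27, 1.37 and 1.12 in young CR mice and 1.12, 0.913 and 0.727 in young AL mice. CR values reached higher than AL values at each age, but the groups overlapped. In young mice the overlap was a single pair, the lowest CR mouse at 1.118 FPKM and the highest AL mouse at 1.120 FPKM. In the fit without the filter the log2 fold change for CR over both ages was 0.18 ± 0.07 (SE), with a 95% confidence interval of 0.01 to 0.34 and an adjusted p of 0.468 over 28537 genes (limma). The exact permutation p for diet was 0.055. The 3 tested genes most like Irs1 over the 12 mice were Plagl1 (Pearson r = 0.94), Clmp (r = 0.93) and Rgcc (r = 0.93).

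Irs2, the docking protein that FOXO factors induce in fasting liver, was the gene with the smallest p for age. It was 2.94, 2.54 and 3.28 FPKM in aged CR mice and 2.82, 4.46 and 3.32 FPKM in aged AL mice. In young mice it was 2.31, 2.01 and 2.55 FPKM with CR and 2.42, 2.47 and 1.90 FPKM with AL. All 3 aged AL mice were above all 3 young AL mice, whereas aged CR and young CR mice overlapped by a single pair, at 2.54 and 2.55 FPKM. Aged minus young, the log2 fold change was 0.36 ± 0.10 (SE; 95% confidence interval 0.14 to 0.57). It did not pass the test (limma, adjusted p = 0.127), and the exact permutation of age within diet gave p = 0.01. At an exact p of at most 0.05 this was 1 of 9 genes, against 16.2% of all tested genes. Leaving out 1 mouse at a time kept the log2 fold change between 0.29 and 0.41, and without aged AL mouse 14, which held the highest value, it was 0.29 (adjusted p = 0.140). With a quality weight per mouse, which gave that mouse a weight of 0.259, it was 0.30 and passed (limma, adjusted p = 0.0309). Under these weights 1798 of 13590 tested genes passed for age, against 103 without them.

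Irs2 did not pass for CR. Its log2 fold change was -0.20 in aged mice, with a 95% confidence interval of -0.50 to 0.11, and 0.01 in young mice, with an interval of -0.29 to 0.32. In aged mice the estimate rested on aged AL mouse 14, without which it was -0.06. The genes most like Irs2 were Rhoq (Pearson r = 0.95), Yars, the tyrosyl-tRNA synthetase (r = 0.94), and 4932438A13Rik (r = 0.91).

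**Figure D2:**
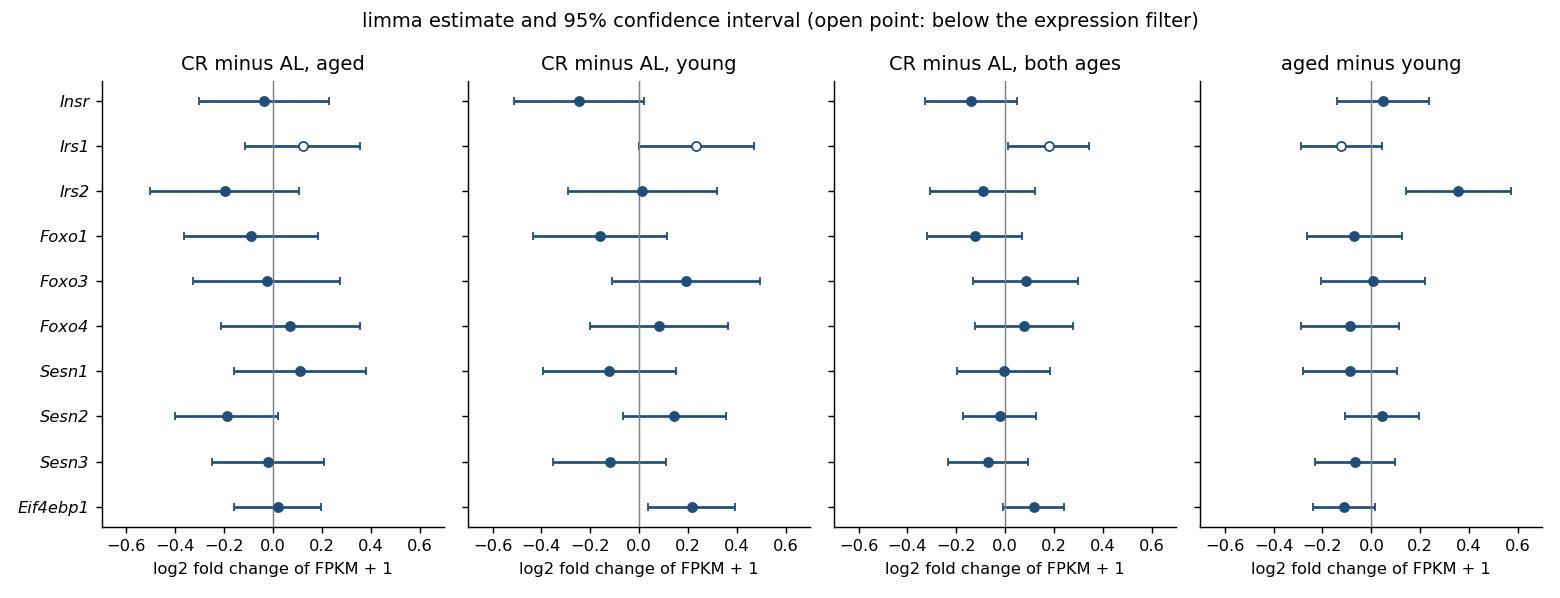
limma log2 fold change of FPKM + 1 (points) with its 95% confidence interval (lines) for each gene in the diet and age comparisons. The open point is Irs1, from the fit without the expression filter. Among the comparisons plotted, Irs2 for age, Eif4ebp1 for CR in young mice and Irs1 for CR over both ages have intervals that do not include 0, and none passed the adjusted test.

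The FOXO factors showed no shared direction with CR. Foxo1, which drives fasting genes and early B cell genes, was 1.41, 1.59 and 1.90 FPKM in aged CR mice and 2.08, 1.30 and 2.07 FPKM in aged AL mice. It was 1.61, 1.62 and 1.84 FPKM in young CR mice and 2.09, 2.11 and 1.82 FPKM in young AL mice. The groups overlapped at each age, through 1 AL mouse at 1.30 FPKM in aged and 1 at 1.82 FPKM in young mice. Over both ages the log2 fold change for CR was -0.13 ± 0.09 (SE; limma, adjusted p = 0.565), and the exact permutation p was 0.14.

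Foxo3, a FOXO factor needed for the oxidative defence of maturing red cells, was 13.6, 19.3 and 18.4 FPKM in aged CR mice and 18.4, 18.8 and 14.8 FPKM in aged AL mice. In young mice it was 17.1, 16.9 and 21.004 FPKM with CR and 15.7, 16.2 and 15.5 FPKM with AL. Young CR and young AL mice did not overlap, and aged mice overlapped widely. Among the 9 tested genes 2 had groups that did not overlap in young mice, Foxo3 and Eif4ebp1, both higher with CR, against 19.5% of all tested genes. For CR, the log2 fold change of Foxo3 was -0.03 in aged mice and 0.19 ± 0.14 (SE) in young mice (limma, adjusted p = 0.985 and 0.631). With aged CR mouse 5 and aged AL mouse 14 both left out, the value in aged mice was 0.18, and it did not pass.

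Foxo4, the FOXO gene of the X chromosome, was 11.2, 15.9 and 15.8 FPKM in aged CR mice and 13.9, 11.96 and 14.4 FPKM in aged AL mice. It was 14.1, 14.5 and 16.7 FPKM in young CR mice and 15.0, 13.3 and 14.4 FPKM in young AL mice. The lowest value of all was in aged CR mouse 5, and the groups overlapped at both ages. Its log2 fold change for CR over both ages was 0.08, with a 95% confidence interval of -0.13 to 0.28 (limma, adjusted p = 0.755).

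The levels of some of these genes followed cell type markers from mouse to mouse. Over the 12 mice, Foxo3 and the mean of 7 erythroid markers had a Pearson r of 0.92 and a Spearman coefficient of 0.94. The coefficient was 0.96 within groups and 0.88 without the 2 mice farthest from the median of the marker list. Only 0.221% of all tested genes had a coefficient of at least this size with that list. The genes most like Foxo3 were Psme3, a proteasome activator subunit (r = 0.98), Fech, the last enzyme of heme synthesis (r = 0.95), and Fbxo34 (r = 0.95). Genes like Foxo4 included Gm3724 (r = 0.94) and Parva (r = 0.88), whereas its coefficient with the erythroid list was 0.52.

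Irs2 ran opposite to the osteoblast and osteocyte markers, with a Pearson r of -0.86 and a Spearman coefficient of -0.80 over the 12 mice. The coefficient was -0.75 within groups and -0.80 without the 2 farthest mice. A coefficient of at least this size with that list was found in 0.986% of all tested genes. Irs2 also ran opposite to the neutrophil markers (r = -0.79, and -0.57 within groups) and the chondrocyte markers (r = -0.79, and -0.55 within groups). The shares of all tested genes with coefficients of those sizes were 1.75% and 1.46%. With age 0 of 8 osteoblast and osteocyte, 0 of 9 neutrophil and 0 of 5 chondrocyte markers were higher, whereas the age difference of Irs2 was positive. Foxo1 followed the B cell markers less closely (r = 0.71 over 12 mice, 0.63 within groups, and 0.48 without the 2 farthest mice), and 7.03% of all tested genes had a coefficient of that size. The B cell list was not alone in this. With macrophage and osteoclast markers the r of Foxo1 was -0.65 (-0.61 within groups, and -0.82 without the 2 farthest mice), a size found in 6.73% of all tested genes. With endothelial markers it was 0.07 over 12 mice and 0.95 within groups. These are descriptions from 100 pairs of genes and lists. All points share the same 12 libraries and their normalization, and the part of the cell types in the levels was not tested.

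**Figure D3:**
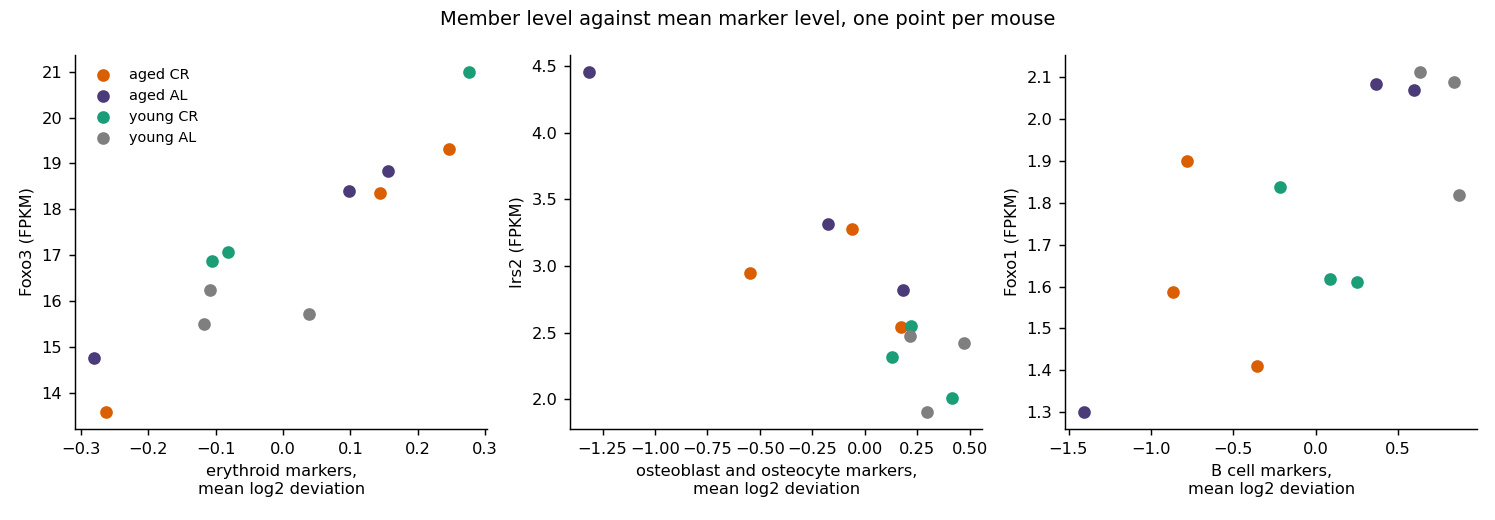
Level of Foxo3, Irs2 and Foxo1 (FPKM) against the mean log2 deviation of erythroid, osteoblast and osteocyte, and B cell markers, with 1 point per mouse colored by group. Mice with higher erythroid markers had higher Foxo3 (r = 0.92), and mice with higher osteoblast markers had lower Irs2 (r = -0.86), with aged AL mouse 14 at the far left.

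Sesn1, a p53 and FOXO target that is the most abundant sestrin here, was 18.9, 25.8 and 24.8 FPKM in aged CR mice and 22.5, 21.5 and 19.7 FPKM in aged AL mice. In young mice it was 22.1, 23.5 and 21.8 FPKM with CR and 27.6, 25.3 and 21.2 FPKM with AL. Its log2 fold change for CR was 0.11 in aged and -0.12 in young mice, and over both ages it was -0.01 with a 95% confidence interval of -0.20 to 0.18 (limma, adjusted p = 0.984).

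Sesn2, the leucine-binding sestrin that ATF4 induces in amino acid and mitochondrial stress, had CR differences of opposite sign at the 2 ages. It was 4.37, 4.41 and 3.49 FPKM in aged CR mice and 4.73, 5.08 and 4.55 FPKM in aged AL mice. In young mice it was 4.66, 4.22 and 4.70 FPKM with CR and 3.59, 4.05 and 4.39 FPKM with AL. All aged CR mice were below all aged AL mice, 1 of 9 genes without overlap in aged mice against 11% of all tested genes, while the young groups overlapped. The log2 fold change for CR was -0.19 ± 0.10 (SE) in aged mice and 0.14 ± 0.10 (SE) in young mice. The difference between the ages was -0.33 (95% confidence interval -0.63 to -0.03) and did not pass (limma, adjusted p = 0.999). It was between -0.39 and -0.25 when 1 mouse at a time was left out.

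Among AL mice alone, Sesn2 was higher in all 3 aged than in all 3 young mice, as was Irs2. These were 2 of 9 genes without overlap, against 13.2% of all tested genes. Among CR mice the 1 gene of 9 without overlap was Eif4ebp1, lower in aged mice, against 18.5%. No gene of the 9 was free of overlap in the same direction in both diets or at both ages, for which the shares of all genes were 2.88% and 2.58%.

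Sesn3, a FOXO target that acts on AKT and mTORC2, was 0.980, 1.47 and 1.39 FPKM in aged CR mice and 1.38, 1.14 and 1.40 FPKM in aged AL mice. It was 1.25, 1.37 and 1.27 FPKM in young CR mice and 1.599, 1.54 and 1.36 FPKM in young AL mice. The young groups overlapped by a single pair, at 1.37 FPKM with CR and 1.36 FPKM with AL. Its log2 fold change for CR over both ages was -0.07, with a 95% confidence interval of -0.23 to 0.09 (limma, adjusted p = 0.712). From mouse to mouse Sesn3 went with Sesn1 (Pearson r = 0.79 over 12 mice, 0.80 within groups) and Foxo1 (r = 0.76, and 0.68 within groups). Sesn1 and Sesn2 ran opposite (r = -0.63, and -0.51 within groups). These were picked as extremes among all pairs of the genes, and no share of all genes was computed. Aged CR mouse 5 was lowest for both Sesn1 and Sesn3, and values without it were not computed.

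Eif4ebp1, the inhibitor of cap-dependent translation that mTORC1 inactivates, was the gene with the smallest p for diet among those tested. It was 36.5, 36.2 and 36.3 FPKM in aged CR mice and 37.2, 33.3 and 37.2 FPKM in aged AL mice. In young mice it was 42.2, 41.8 and 42.5 FPKM with CR and 32.6, 36.3 and 40.1 FPKM with AL. The 3 young CR mice were nearly alike and above the other 9 mice, with means of 42.2 ± 0.363 FPKM in young CR and 36.3 ± 3.77 FPKM in young AL mice (SD, n = 3). For CR the log2 fold change was 0.02 in aged mice and 0.21 ± 0.08 (SE; 95% confidence interval 0.04 to 0.39) in young mice. Neither passed (limma, adjusted p = 0.980 and 0.382), and the value in young mice was between 0.14 and 0.29 when 1 mouse was left out. The exact permutation p was 0.065 for diet within age and 0.085 for age within diet. The genes most like Eif4ebp1 over the 12 mice were Fstl3 (r = 0.93), Rab8a (r = 0.91) and Men1 (r = 0.90).

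**Figure D4:**
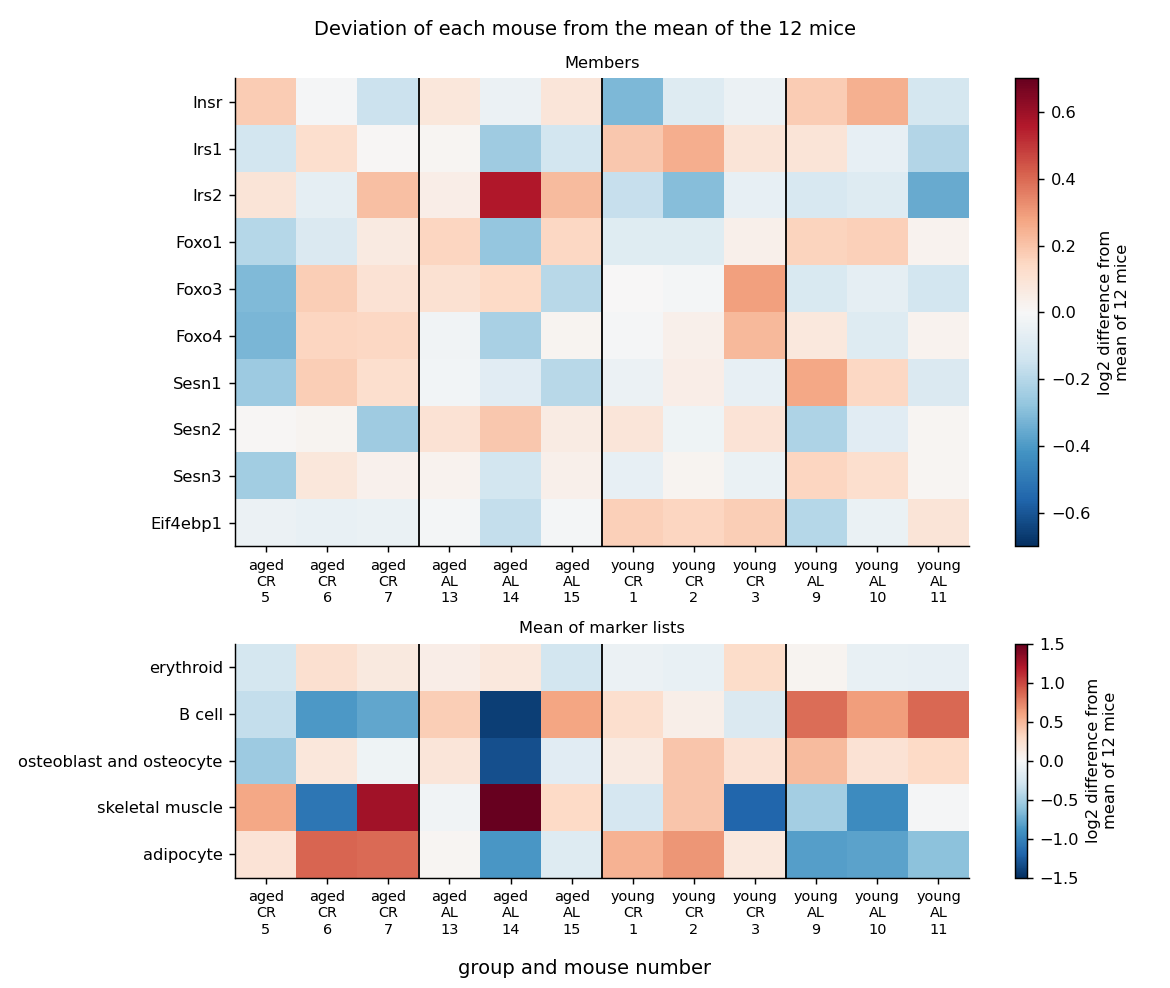
Log2 difference of each mouse (columns, by group and mouse number) from the mean of the 12 mice, for the 10 genes (upper panel) and the mean of 5 marker lists (lower panel, wider color scale), with red above and blue below the mean. Aged CR mouse 5 is low for Foxo3, Foxo4, Sesn1 and Sesn3 together, and aged AL mouse 14 is high for Irs2 and low for Foxo1.

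Extreme values lay in both of the mice that stood apart and in others. Aged CR mouse 5 had the lowest value of 4 of the 10 genes, Foxo3, Foxo4, Sesn1 and Sesn3, and its mean erythroid marker level was 0.26 below the mean of all mice on the log2 scale. Aged AL mouse 14 had the lowest value of 2 genes, Irs1 and Foxo1, and the highest of 2, Irs2 and Sesn2. Young CR mouse 3 had the highest value of 3 genes, young AL mouse 10 the highest of 2, and young AL mouse 9 the lowest of 1 and the highest of 2. Without aged CR mouse 5 and aged AL mouse 14 the signs of the CR difference in aged mice turned for Foxo3, Sesn3 and Eif4ebp1. Irs1 was then past the filter, and none of the 10 genes passed in any comparison. Of 13583 genes tested in this setting, 48 passed for CR in aged mice and 159 in young mice, against 0 and 9 with all mice. Over both ages 441 passed for CR, against 35, and for age 213, against 103. For the interaction 1 passed, against 0.

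The rest of the pathway was read from 11 lists with 160 distinct genes, of which 157 were in the table and 143 were tested. Only Slc3a2 was called, for age, which is 1 of 143 genes against 0.758% of all tested genes. Of 9 tested receptors and adaptors, 0 passed for CR over both ages and 0 for age, and 3 had a positive CR difference (median -0.09, against 0.00 for all tested genes). Of 14 PI3K, PDK1 and AKT kinases and related genes, 0 passed for CR and 0 for age. Sgk1, an AKT-like kinase induced by glucocorticoids, had a log2 fold change for CR of 0.30 (limma, adjusted p = 0.237). Of 13 brakes on the pathway 0 passed. Grb14, an adaptor that inhibits the insulin receptor, had a CR difference of 0.25 (adjusted p = 0.129) and an age difference of -0.24 (adjusted p = 0.126). It averaged 2.09 FPKM in aged CR, 1.75 in aged AL, 2.87 in young CR and 2.07 in young AL mice, and its aged and young mice did not overlap in either diet, as in 2.88% of all tested genes.

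On the nutrient-sensing side 0 genes passed as well. They comprised 12 genes of TSC and the mTOR complexes, 23 of the GATOR, Rag and Ragulator sensors, 12 mTORC1 outputs and 9 of AMPK and its upstream kinases. Of the mTORC1 outputs 9 of 12 had a negative CR difference over both ages, with a median of -0.12 against 0.00 for all tested genes. Rps6kb1, the gene of the S6 kinase, was below AL in every CR mouse at each age, with 7.99, 7.87 and 7.82 FPKM in aged CR, 8.42, 9.50 and 8.20 in aged AL, 8.06, 8.02 and 8.13 in young CR and 9.16, 8.28 and 8.52 in young AL mice. Its log2 fold change was -0.11 (limma, adjusted p = 0.381; exact permutation p = 0.005, the smallest possible, which 2.58% of all tested genes reached). Prkab2, a regulatory subunit of AMPK, had a CR difference of -0.23 (adjusted p = 0.179) and an age difference of 0.26 (adjusted p = 0.117). Its means were 4.57 FPKM in aged CR, 5.24 in aged AL, 3.46 in young CR and 4.43 in young AL mice. Neither gene passed.

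FOXO target genes had no common direction. Of 20 tested, 0 passed for CR over both ages, with 10 positive and 10 negative differences and a median of 0.02, and 0 passed for age, again with 10 of each sign. Bnip3, a mitophagy receptor that FOXO3 induces in muscle, was 9.21, 9.34 and 10.4 FPKM in aged CR, 9.14, 6.83 and 7.39 in aged AL, 9.58, 9.11 and 8.39 in young CR and 7.19, 7.14 and 7.10 in young AL mice. Its CR groups lay above the AL groups at each age, where 2.58% of all tested genes did not overlap in 1 direction at both ages, and the log2 fold change of 0.29 did not pass (limma, adjusted p = 0.0970). Rag1, the recombinase of developing lymphocytes and a FOXO1 target in B cells, had a CR difference of -0.83 (limma, adjusted p = 0.215). It was 1.07, 0.0325 and 0.00330 FPKM in aged CR mice and 3.08, 0.244 and 2.29 FPKM in aged AL mice. Aged groups therefore overlapped, with values near 0. It averaged 1.64 FPKM in young CR and 3.22 FPKM in young AL mice, groups without overlap, as in 19.5% of all tested genes. B cell markers were higher with CR for 0 of 9 genes over both ages and 2 of 9 in aged mice. The part of B cells in the Rag1 values was not tested. Of the 11 tested FOXO family members and regulators 0 passed. Skp2, the ubiquitin ligase subunit that targets FOXO1, had CR groups above AL at each age, again against 2.58% of all tested genes without overlap in 1 direction, and a log2 fold change of 0.24 (adjusted p = 0.148).

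Of the 11 tested genes in the list of sestrins and other p53 targets 0 passed for CR over both ages and 0 for age. Cdkn1a, the p21 cell cycle inhibitor, averaged 9.13 FPKM in aged CR, 8.00 in aged AL, 8.89 in young CR and 5.90 in young AL mice, with a CR difference of 0.36 (limma, adjusted p = 0.198). Trp53inp1, a p53-induced nuclear protein gene, had a CR difference of -0.34 (adjusted p = 0.309). For age, Phlda3, a p53-induced inhibitor of AKT, had a difference of 0.45 (adjusted p = 0.169).

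The ATF4 targets, among them Sesn2 and Eif4ebp1 themselves, included the called gene. Slc3a2, the heavy chain of the leucine transporter that supplies mTORC1, rose with age. It was 59.6, 61.5 and 65.7 FPKM in aged CR mice and 70.3, 69.6 and 70.6 FPKM in aged AL mice, against 52.4, 54.6 and 59.9 FPKM in young CR mice and 53.1, 50.8 and 55.4 FPKM in young AL mice. The log2 fold change was 0.28 (limma, adjusted p = 0.0395), and the call was lost when any 1 of 9 of the 12 mice was left out. Over all 12 removals the adjusted p was 0.0307 to 0.125. It held without young CR mouse 3, aged CR mouse 6 or aged AL mouse 14. Of the 13 tested ATF4 targets 11 had a positive age difference, with a median of 0.18 against -0.02 for all tested genes. Without aged AL mouse 14 the median was 0.05, with 10 of 12 positive. With a quality weight per mouse it was 0.09, with 9 of 13 positive.

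The same 13 genes had CR differences that were negative for 11 in aged mice (median -0.12) and positive for 10 in young mice (median 0.06), and 0 of them passed in either age. Without aged AL mouse 14, with 12 of the genes past the filter, the counts were 7 of 12 negative in aged mice and 10 of 12 positive in young mice, with medians of -0.08 and 0.10. Atf5, a stress-induced factor of the ATF4 family, averaged 9.63 FPKM in aged CR and 11.1 in aged AL mice, and 9.97 in young CR and 7.51 in young AL mice. Its CR difference was -0.18 in aged and 0.36 in young mice, and the difference between the ages, -0.54, did not pass (limma, adjusted p = 0.999). Because Sesn2 and Eif4ebp1 belong to the list and the age and interaction estimates use the same mice, the list adds no separate evidence on those genes.

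**Figure D5:**
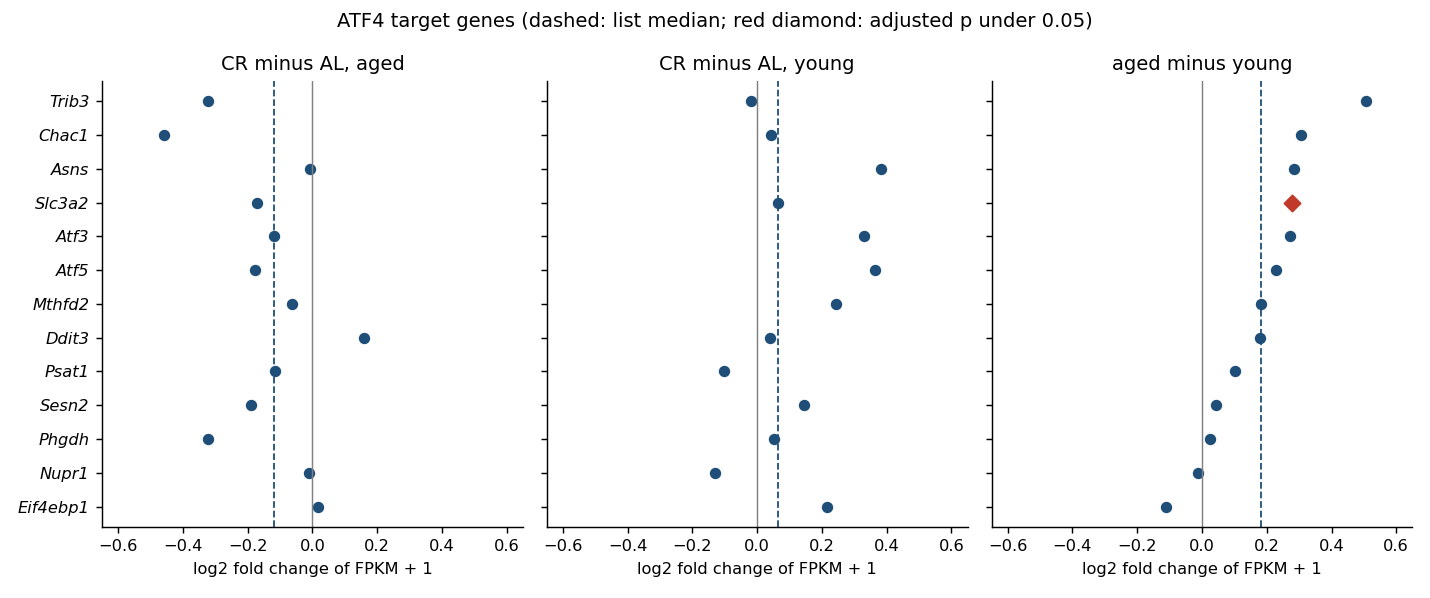
limma log2 fold change of FPKM + 1 for the 13 tested ATF4 target genes, ordered by the age difference, for CR in aged mice, CR in young mice and age. The dashed line is the list median and the diamond the called gene, Slc3a2 for age. Most points are left of 0 for CR in aged mice and right of 0 for CR in young mice and for age, and 0 passed for CR. The same aged AL mice enter the CR comparison in aged mice and the age comparison, with opposite sign.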

How the data were processed

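Whole tibia RNA of 12 mice was measured by stranded mRNA sequencing. The authors used FastQC 0.11.8 and MultiQC 1.6 for read quality, Trim Galore 0.5.0 for trimming, STAR 2.6.1 for alignment (mm10) and StringTie 2.1.3b for quantification. The deposited values are FPKM after quantile normalization in R 4.1.1, and equal ranks agreed between mice to within 0.00936 FPKM. This normalization removes any change common to most genes. The sources used here do not state how the 4 technical repeats of a mouse were combined. Depth is unknown, and precision is the spread between mice.

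Values were transformed as log2(FPKM + 1), which understates changes of low genes, and genes averaging 1 FPKM or more were fitted as 4 group means with limma-trend (limma version 3.58.1, R version 4.3.3). P-values were adjusted by Benjamini-Hochberg over 13590 genes and called under 0.05. Exact stratified permutations had 400 arrangements. Within 1 age the smallest exact permutation p is 0.1, so no such test was used there. A list's level in a mouse is the mean log2 deviation of its tested genes. The statistics were tested on simulated data.

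The genes and lists were chosen with earlier results of these data known. All 10 genes were named, with, of each list, genes called and the 2 with the smallest p for diet and for age, from which those described were taken, and the 3 genes most like each gene. Some genes that this rule names are not reported here. ATF4 targets outside that rule are shown only in a figure. Alternatives were a pseudocount of 0.1, no filter, median-of-ratios scaling, a quality weight per mouse, a fit of only the 2 groups, an unequal-variance test on FPKM, unadjusted p, and leaving out mice, and a replicate block added after seeing the data. Positions are from GENCODE M21, in which 99.2% of identifiers were found. Protein sequences were not used here.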

Additional observations from a re-analysis of the deposited data

How the results depend on the processing

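The count of 0 genes called was unchanged under every alternative except 2. A quality weight per mouse called 1 gene for age (Irs2), and an unadjusted p called 1 each for CR in young mice, for age and for the interaction. Among all 13590 tested genes the quality weights called 1798 for age, against 103 without them. The labels pair no mice. A replicate block of CR and AL mice with adjacent column numbers, chosen after seeing the data, called 0 of the 9 genes for CR and the interaction. Over all tested genes it called 0 for CR in young mice and 0 over both ages, against 9 and 35 without the block, and the deviations of mice so paired correlated at -0.14 to 0.03. Many alternatives repeat the main value by construction, such as an unadjusted p, or removal of a mouse of the other age for CR within an age. A kept sign there is no measure of stability. Over 50 log2 fold changes of the genes and 1 of Slc3a2, 874 of 930 alternative values kept their sign, and 56 changed it. Those results had main values of at most 0.21 in size and were not called. With quality weights the values that turned were, for Irs2, -0.0034 for CR in young mice, 0.013 in aged mice, 0.0050 over both ages and 0.017 for the interaction, for age 0.033 (Foxo1), 0.013 (Foxo4) and -0.0012 (Sesn2), for CR 0.0091 over both ages (Sesn1) and -0.025 in aged mice (Eif4ebp1), and 0.076 for the interaction (Foxo4), which was 0.00046 with median-of-ratios scaling. With aged CR mouse 5 and aged AL mouse 14 both left out they were, for CR in aged mice, 0.18 (Foxo3), 0.026 (Sesn3) and -0.036 (Eif4ebp1), for CR over both ages 0.064 (Sesn1), for age 0.031 (Foxo1), 0.029 (Foxo4) and 0.0098 (Sesn3), and for the interaction -0.0067 (Foxo1) and 0.069 (Foxo4). Leaving out 1 mouse at a time gave ranges that crossed 0 for CR in aged mice of -0.12 to 0.041 (Insr), -0.13 to 0.12 (Foxo3), -0.0090 to 0.23 (Foxo4), -0.082 to 0.078 (Sesn3) and -0.033 to 0.044 (Eif4ebp1), for CR in young mice of -0.070 to 0.076 (Irs2), and for CR over both ages of -0.057 to 0.060 (Sesn1) and -0.054 to 0.021 (Sesn2). For age they were -0.0086 to 0.086 (Insr), -0.11 to 0.00024 (Foxo1) and -0.040 to 0.080 (Foxo3), and for the interaction -0.068 to 0.14 (Foxo1) and -0.090 to 0.14 (Foxo4). The cause was not tested. With 3 mice per group small changes can be missed, and the depth behind each value is unknown.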
